A study of Mus musculus with 10 samples.

Results

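Vimentin, nestin and the nuclear lamins are intermediate filament proteins other than keratins, studied here in embryonic stem (ES) cells. Their 5 genes, Vim, Nes, Lmna, Lmnb1 and Lmnb2, were taken as a named list from the 30677 genes of the RNA-seq count table and matched by Ensembl identifier, and all 5 passed the filter on low counts. They were chosen by their CPM (read counts after scaling every library to the same total) in these libraries and by their difference between treatments, with and without the replicate letter, so that difference is given as a description, with fold changes and standard errors. Threshold calls for these genes are given once, as counts beside those of all genes, and are no evidence for them. The libraries came from TNGA cells, a mouse ES cell line with a GFP reporter in 1 of its Nanog alleles, grown in serum and LIF. One group of 3 cultures received the vehicle DMSO and another group of 3 received 100 μM MB-3, an inhibitor of the histone acetyltransferase Kat2a, for 48 hours, and DMSO made up 0.1% of the volume in both groups. The libraries of polyadenylated RNA carried the replicate letters A, B or C within a treatment and held 46863700 to 51137896 counts in DMSO and 42270312 to 49334434 in MB-3. All cultures were of 1 cell line, and nothing in the labels says what, if anything, the same letter shares between groups. H3K9ac peak lists, 1 per treatment, were also used.

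Intermediate filaments are built from rod-shaped proteins that pair along a coiled coil and then assemble into ropes. Vimentin forms such ropes in the cytoplasm of mesenchymal and many cultured cells, and nestin, a long filament protein known from neural progenitors, co-assembles with it. Lamins line the inner face of the nuclear envelope: Lmnb1 and Lmnb2 encode the B-type lamins, which nearly all cells make, while Lmna encodes lamins A and C, known to be scarce in ES cells and to be more abundant in stiff and differentiated tissues. The counts are per gene, so lamin A cannot be separated from lamin C here.

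The sequences that follow are the 30 bases from 40 to 11 bases before each RefSeq start (build GRCm38.p6) of Vim, Nes, Lmna and Lmnb2, where a TATA box would lie. They are shown to set the starts of Vim, Nes and Lmna, whose level was lower in MB-3 at each replicate letter, beside those of Lmnb2, whose level was not, and capitals mark the letters TATAAA, searched on both strands. The start of Lmnb1 was not analysed here.
Vim, chr2:13574271-13574300, forward strand: aacagtgtTATAAAagcagcgcccttggcg
Nes, chr3:87971053-87971082, forward strand: aataccctcgcttcagctcgctgctggaat
Lmna, upstream start, chr3:88503363-88503392, reverse strand: gtacaggatggctcctttaagagcagtgga
Lmna, downstream start, chr3:88493323-88493352, reverse strand: gggagcagcacctcagtcccctgcccaacc
Lmnb2, upstream start, chr10:80918256-80918285, reverse strand: gcgccaaggagactacaaattccggcgcgc
Lmnb2, downstream start, chr10:80906423-80906452, reverse strand: gccaggccccacctgaggtcagtgcagagg

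The window of Vim held TATAAA and the other 5 windows did not, while 2.66% of all 32851 RefSeq promoters held it in the same window. In GENCODE M21 the Vim window lies within an exon of 1 of 6 Vim transcripts, is touched by an exon of 1 more and lies in an intron of another 1, and exons of 1 Nes and 1 Lmna transcript reach into the Nes window and the window of the upstream Lmna start. The windows of the downstream Lmna and Lmnb2 starts lie in introns of longer transcripts. The stretches of 250 bases before the Vim start and before the downstream Lmna start held CCAAT, found in 33.8% of promoters, and those of Nes, of the upstream Lmna start and of the upstream Lmnb2 start held GGGCGG, found in 32.7%. A CpG was counted 15 times in the 250 bases of Nes and 14 times in those of the upstream Lmnb2 start, 8 times in those of Vim, 1 and 4 times in those of the upstream and downstream Lmna starts and 5 times in those of the downstream Lmnb2 start, against a median of 6 over all promoters. These are matches of letters and say nothing of factor binding.

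On GRCm38, Vim (ENSMUSG00000026728) lies on chromosome 2 from 13573927 to 13582826, Nes (ENSMUSG00000004891) on chromosome 3 from 87971078 to 87980451, and Lmna (ENSMUSG00000028063), on the reverse strand of the same chromosome, from 88480147 to 88509956. Lmnb1 (ENSMUSG00000024590) lies on chromosome 18 from 56707813 to 56753424 and Lmnb2 (ENSMUSG00000062075) on chromosome 10 from 80901203 to 80918245, on the reverse strand. None of the 5 overlaps another gene in GENCODE M21.

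Lmnb1 had the highest level and Lmna the lowest. Per kilobase of exon, in RPKM (CPM divided by exon length), Lmnb1 stood at 117 ± 2.62 with DMSO and at 126 ± 4.32 with MB-3 (SD, n = 3), above 96.5% of the genes tested. Lmnb2 was at 21 ± 0.951 and 20.8 ± 0.763 RPKM. Vim was at 27.2 ± 4.34 RPKM in DMSO and 15.6 ± 0.545 in MB-3. The ranges of Vim and Lmnb2 over all 6 libraries overlapped, with Vim above Lmnb2 in every DMSO library and below it in every MB-3 library. Nes had 6.83 ± 2.62 and 4.16 ± 1.10 RPKM, and Lmna, the lowest on average, had 4.01 ± 0.165 and 2.89 ± 0.204 RPKM. The ranges of Nes and Lmna overlapped too, although Nes was above Lmna within each of the 6 libraries. The exon length used here counts every annotated exon base of a gene once, so a gene with many partial transcripts is set somewhat low.

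**Figure D1:**
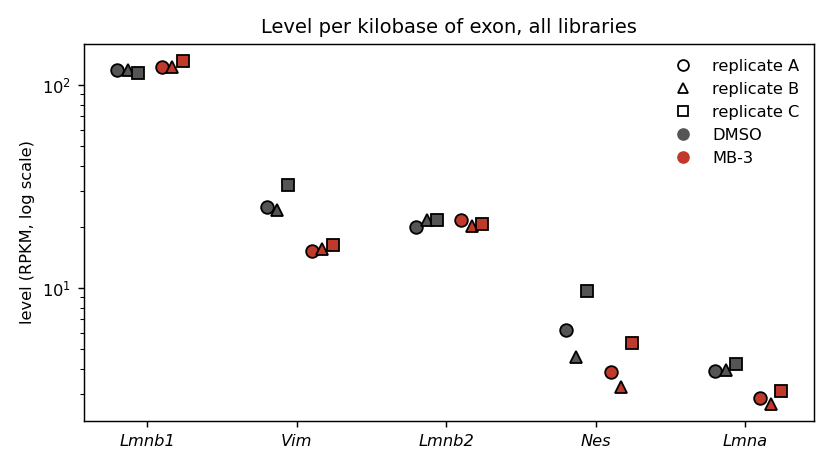
Level of each gene in RPKM on a log axis, with 1 point per library (grey DMSO, red MB-3, shapes for replicates A, B and C). Lmnb1 lies between 114 and 131 RPKM in all 6 libraries and Lmna between 2.69 and 4.20, while Vim crosses the level of Lmnb2 between treatments.

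Vim was lower in MB-3 than in DMSO. Its level was 119, 115 and 153 CPM in DMSO replicates A, B and C, and 71.9, 73.5 and 76.9 CPM in the MB-3 libraries of the same letters. The groups did not overlap, as was so, with MB-3 lower, for 7.37% of genes, and the spread was carried by DMSO replicate C, with the MB-3 libraries close to each other (SD 2.59 against 20.6 CPM in DMSO). The log2 fold change of MB-3 over DMSO was -0.80 (standard error 0.09), a level 42.5% lower, and 1.25% of the tested genes had a lower one.

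Nes was also lower in MB-3 on average, but its groups overlapped. It was at 39.96, 29.2 and 62.2 CPM in DMSO and at 24.7, 20.8 and 34.5 CPM in MB-3, in the order of the letters. MB-3 replicate C lay above DMSO replicate B, while within each letter the MB-3 library was the lower of the pair. The log2 fold change was -0.71 (standard error 0.22), and with the replicate letter as a block it was -0.68 with a standard error of 0.06. This value rested on single libraries: it was -0.37 without DMSO replicate C, and -0.94 without DMSO replicate B or without MB-3 replicate C.

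Lmna, though scarce, showed little spread between libraries of a group. DMSO replicates A, B and C had 22.7, 23.1 and 24.5 CPM and MB-3 replicates 16.8, 15.7 and 18.1 CPM. Every MB-3 library was thus below every DMSO library, as was so for 7.37% of genes, and 4.13% of the tested genes had a lower fold change. The log2 fold change was -0.48 (standard error 0.08), a level 28.1% lower, and leaving out any 1 library gave values between -0.53 and -0.43.

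The B-type lamins did not share this direction. Lmnb1 was at 350, 352 and 338 CPM in DMSO and at 364, 366 and 387 CPM in MB-3. Its groups did not overlap either, with MB-3 the higher by 7.33% (log2 fold change 0.10, standard error 0.05), as was so for 8.22% of genes. Lmnb2 was at 85.1, 92.2 and 92.1 CPM in DMSO and 92.5, 86.0 and 88.4 CPM in MB-3, in groups that overlapped, with a log2 fold change of -0.01 (standard error 0.06) whose sign turned when single libraries were left out.

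**Figure D2:**
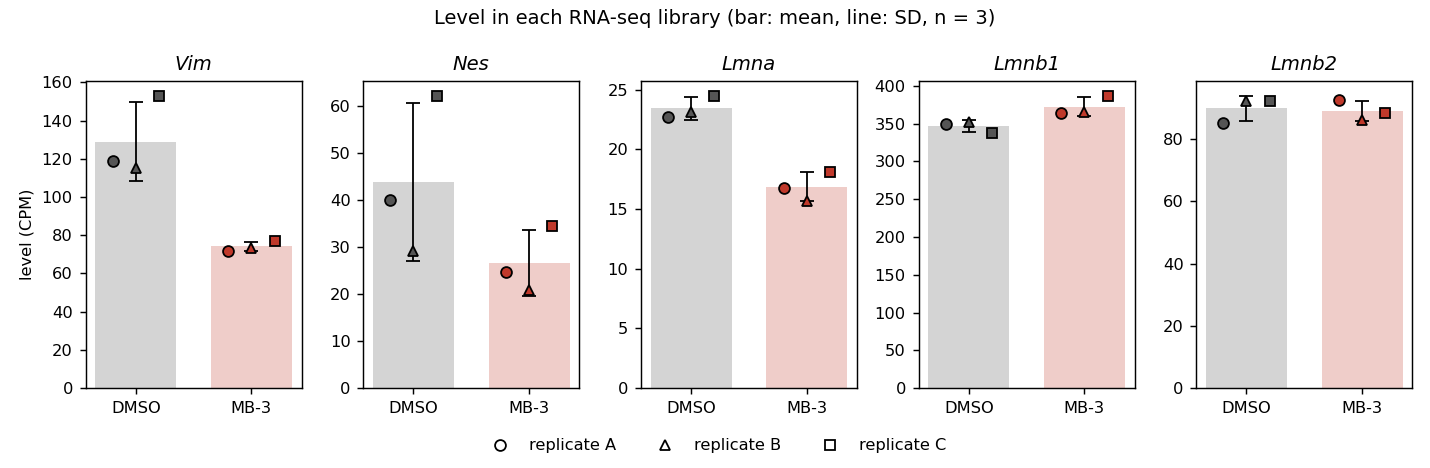
Level of each gene in CPM in the DMSO (grey) and MB-3 (red) libraries, with bars for the mean, lines for the SD (n = 3) and shapes for replicates A, B and C. Vim, Nes and Lmna have lower means in MB-3, Lmnb1 has a slightly higher one, and Nes shows the widest spread in proportion to its level.

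Of the 5 genes, 2 (Vim and Lmna) had an adjusted p-value under 0.05 in the fit with treatment as the only term, where 0.205% of the 20027 genes tested did, and 3 (Vim, Nes and Lmna) with the replicate letter as a block, where 7.12% did (3.9% lower and 3.22% higher in MB-3). Since these contrasts chose the genes, nothing is read from the counts. The block was used because libraries of the same letter deviated together. The counts themselves varied with single libraries: 0 of the 5 genes were called with MB-3 replicate A or MB-3 replicate B left out, where edgeR called 0 genes in all (1440 and 1716 had an unadjusted p-value under 0.05). Lmna was not called either without DMSO replicate A or DMSO replicate C, where 0.0147% and 0.0246% of all genes tested were called. Nes was called without DMSO replicate B, where 2.55% of all genes tested were.

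Within letters, the log2 ratio of MB-3 to DMSO was -0.73, -0.65 and -0.99 for Vim, -0.69, -0.49 and -0.85 for Nes and -0.43, -0.56 and -0.44 for Lmna, at A, B and C. All 3 genes were thus lower at each letter, as were 20.3% of the genes tested. Lmnb1 was higher at each letter, by 0.06, 0.05 and 0.20, and 20.2% of the genes tested were. Lmnb2 was higher at A, by 0.12, and had ratios of -0.10 at B and -0.06 at C. Vim and Nes had their largest ratio in size at C and their smallest at B, which was not the order of Lmna.

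**Figure D3:**
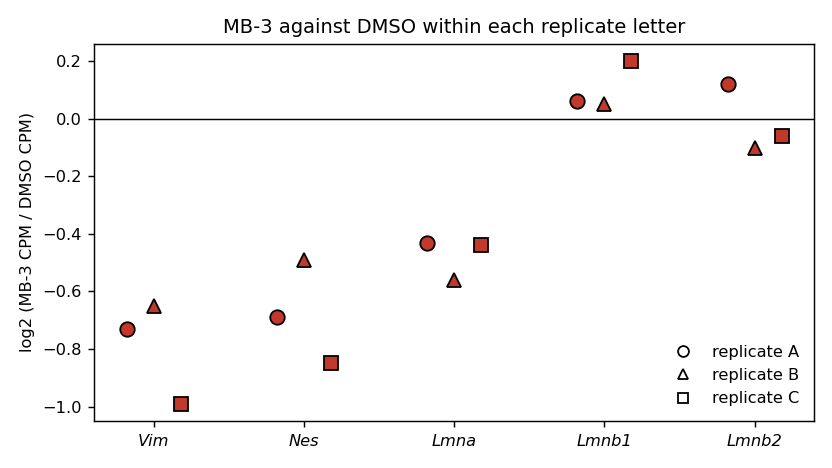
Log2 ratio of the MB-3 level to the DMSO level (CPM) within each replicate letter, with 1 point per letter and a line at 0. All points of Vim, Nes and Lmna lie below 0, between -0.99 and -0.43, and those of Lmnb1 above it, at 0.05 to 0.20.

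With Lmna lower and the B-type lamins near their DMSO level, the make-up of the lamin transcripts also differed in value between treatments, which follows from the values above and was not tested. Lmna made up 2.74%, 2.74% and 3.01% of the summed lamin RPKM in DMSO replicates A, B and C, and 1.95%, 1.84% and 2.01% in MB-3. The groups did not overlap, and the share averaged 2.83% ± 0.154 with DMSO against 1.93% ± 0.0853 with MB-3 (SD, n = 3). Per kilobase there was 29.2 ± 1.79 times as much Lmnb1 as Lmna in DMSO and 43.6 ± 2.01 times as much in MB-3. The summed lamin level was 142 ± 2.29 RPKM in DMSO and 149 ± 4.42 in MB-3. In bulk libraries fewer cells that express a gene cannot be told apart from less of its RNA per cell.

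The libraries of a group also differed among themselves. Because the genes were chosen on CPM in the same 6 libraries, these differences between letters are given as a description, without a test. Nes showed the widest: replicate C was 2.13 times replicate B in DMSO and 1.66 times in MB-3, and replicate A lay between them in both groups. For Vim, C was 1.33 times B in DMSO and 1.05 times B in MB-3, and C was the highest library of each group. C was the highest library of both groups for Lmna too, as for 14.7% of all genes tested, at 1.06 times B in DMSO and 1.15 times B in MB-3. For Lmnb1 C was 0.96 times B in DMSO and 1.06 times B in MB-3, and for Lmnb2 these values were 0.999 and 1.03.

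The genes whose profiles over the 6 libraries were most like those of Vim, Nes and Lmna were sought among 10159 genes of at least 10 CPM, by the root mean square difference of centred log2(CPM + 0.1). Lmnb1 and Lmnb2 spanned less than 0.58 on that scale and were not matched. Nearest to Vim were S100a10, which encodes the partner of annexin A2 (difference 0.075), Cavin1, a coat protein of caveolae (0.076), and Anxa5, annexin A5 (0.10), against a median of 0.43 over the candidates. S100a10 had 73.5, 67.2 and 98.0 CPM in DMSO and 47.2, 48.1 and 53.0 CPM in MB-3. Nearest to Nes were Serpinh1, the collagen chaperone (0.076), Hmga2, a chromatin protein (0.077), and Zyx, the focal adhesion protein zyxin (0.080), against a median of 0.52. Serpinh1 was at 48.9, 33.0 and 75.8 CPM in DMSO and at 28.1, 22.2 and 37.3 CPM in MB-3, with the same order of letters as Nes. Nearest to Lmna were Hspb8, a small heat shock protein (0.044), Pros1, protein S of the clotting system (0.066), and B2m, the light chain of MHC class I (0.069), against a median of 0.26. Hspb8 was at 34.8, 34.6 and 38.1 CPM in DMSO and at 26.2, 25.6 and 26.9 CPM in MB-3, with little difference between letters. Exons of Hmga2 and Zyx overlap exons on the opposite strand, and the use of strand in counting is not given in the sources used here. The root mean square difference was 0.19 between Vim and Lmna, 0.28 between Vim and Nes and 0.34 between Nes and Lmna, on 6 libraries that share 2 treatments.

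**Figure D4:**
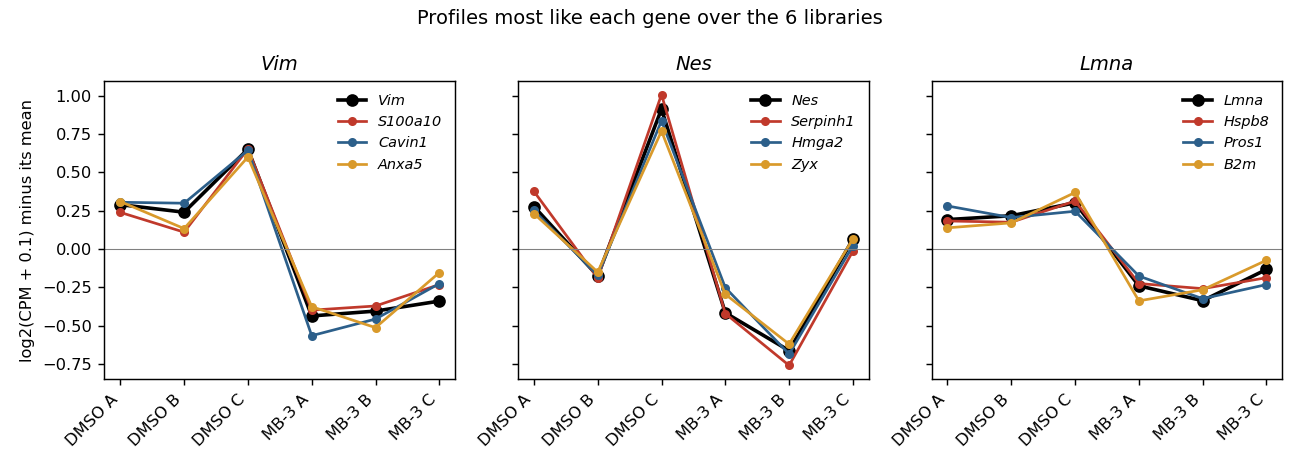
Log2(CPM + 0.1) minus its mean over the 6 libraries for Vim, Nes and Lmna (black) and the 3 genes of most similar profile for each (coloured). DMSO replicate C is the highest library for all 3 black lines, and replicate C stands farthest above the others for Nes.

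Other genes of filaments and lamina, listed for their known roles, were tested in the same fits. Of 42 genes, 40 were tested. In MB-3 against DMSO 0 were called by edgeR, where 0.205% of all genes were, and 0 by DESeq2 or limma-voom. In edgeR 3 of the 40 had an unadjusted p-value under 0.05, against 2182 of the 20027 genes tested. With the replicate letter as a block 4 of 40 were called, or 10%, against 7.12% of all genes. These were 2 filament genes, 1 nuclear envelope gene and 1 cytolinker gene, and 2 of them were higher and 2 lower.

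Of the other cytoplasmic filament genes 11 of 12 were tested, 6 higher and 5 lower in value, with a median log2 fold change of 0.01. Ina, which encodes the neuronal filament protein internexin, stood at 76.5 ± 7.64 CPM with DMSO and 91.9 ± 4.21 CPM with MB-3 (SD, n = 3). Its groups did not overlap, as was so, with MB-3 higher, for 8.22% of genes. It rose by 0.27 on the log2 scale with the block (standard error 0.05, adjusted p = 0.00032, edgeR) and had an adjusted p of 0.20 without it. Nefl, the light neurofilament protein, was at 15.7 ± 5.10 and 10.5 ± 1.46 CPM, and with the block it fell by 0.55 (standard error 0.08, adjusted p = 2.9e-05, edgeR; 0.25 without it). Both overlap exons on the opposite strand, those of Nt5c2 and of Nefm. Without DMSO replicate B both Ina and Nefl were called with treatment as the only term, at log2 fold changes of 0.34 and -0.73. In that fit 2.55% of all genes tested were called. With any other single library left out, 0 genes of the filament and lamina lists were called. The values of this family thus lay on either side of 0.

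Of 14 nuclear lamina partner genes, all tested, 5 were higher and 9 lower in value, with a median of -0.03. Sun2, an inner membrane protein that links lamins to the cytoskeleton, was at 13.2, 11.8 and 12.8 CPM in DMSO and 10.7, 9.79 and 10.1 CPM in MB-3. Its groups did not overlap, as was so, with MB-3 lower, for 7.37% of genes. It fell by 0.30 on the log2 scale with the block (standard error 0.08, adjusted p = 0.012, edgeR; 0.22 without it), though part of an exon overlaps a gene on the opposite strand. Its paralog Sun1, the lamin B receptor Lbr and emerin, Emd, were named after their values were seen, as familiar partners of lamins. Their log2 fold changes were -0.01 (standard error 0.06), 0.03 (0.05) and -0.04 (0.07). Among the 5 prelamin processing genes, which add and trim the lipid anchor of lamins, the smallest p-values were those of Fntb, a farnesyltransferase subunit (-0.06, standard error 0.05), and Rce1, a protease (-0.05, standard error 0.07), and the whole list ran from -0.06 to 0.03. Fntb shares exon bases with Churc1 on its own strand, so its count may hold reads of both.

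Cytolinkers tie filaments to other structures, and all 5 of the 6 that were tested had values above 0, between 0.01 and 0.15. Macf1, which bridges actin and microtubules, was at 312 ± 43.1 CPM in DMSO and 347 ± 26.1 in MB-3 and rose by 0.16 with the block (standard error 0.04, adjusted p = 0.022, edgeR; 0.56 without it). Of the kinases that phosphorylate filaments in dividing cells, Cdk1 had -0.10 (standard error 0.06) and Aurkb -0.05 (standard error 0.06), and 0 of 5 were called with or without the block (edgeR; without it 0 had an unadjusted p-value under 0.05). Between letters, 8 of the 40 tested genes differed (20%, against 7.84% of all genes), among them Nefl, Macf1 and Nefm. This was edgeR's quasi-likelihood test of the replicate letter with treatment in the model and Benjamini-Hochberg adjustment. On simulated counts that test made more false calls than its threshold where each gene kept its own dispersion. Exons of Nefl and Nefm share 1108 bases on opposite strands, so their counts may hold reads of both.

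**Figure D5:**
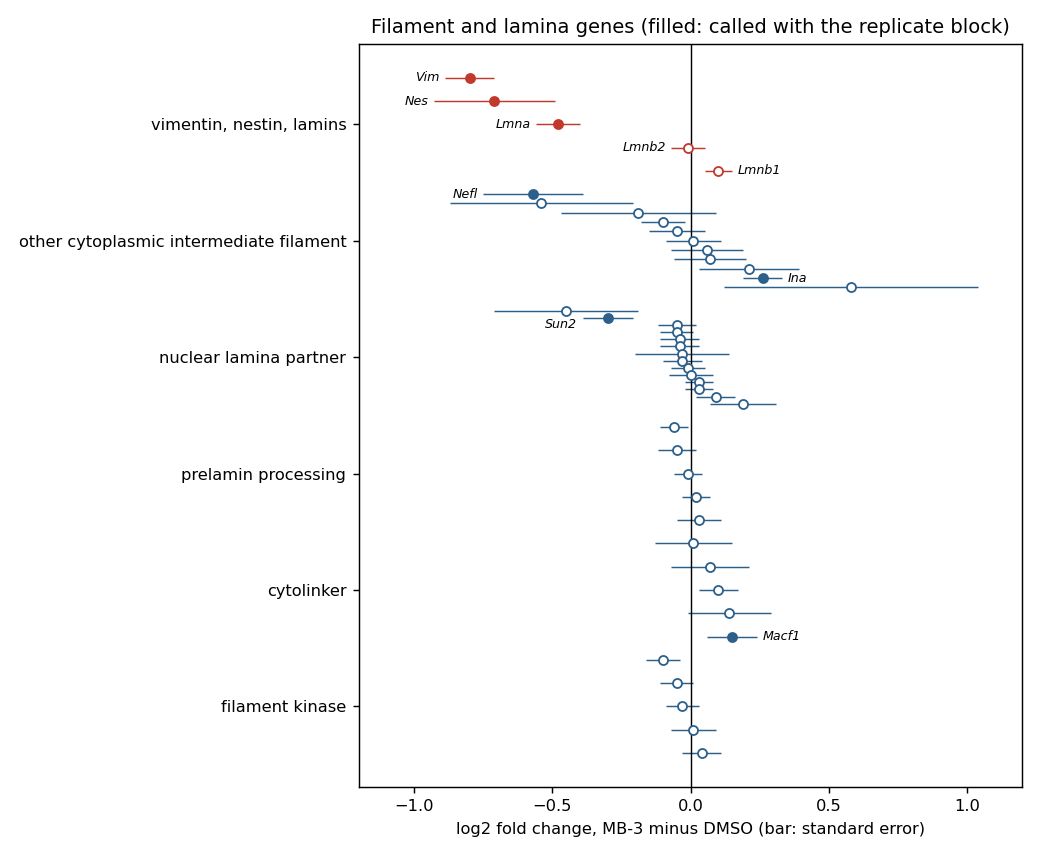
Log2 fold change of MB-3 over DMSO with treatment as the only term (lines: standard error) for vimentin, nestin and the lamins (red) and the tested genes of 5 lists (blue), filled where the gene was called with the replicate block. Vim, Nes and Lmna lie at -0.80, -0.71 and -0.48, and the prelamin processing genes lie within -0.06 and 0.03.

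Markers of cell types were read beside these values, since Vim, Nes and Lmna are also made by cells leaving the ES state. All 10 ES cell markers were tested, 6 with values above 0 and 4 below, with Dppa5a the most abundant (-0.13). Of these, 0 were called (edgeR), and 3 had an unadjusted p-value under 0.05, as had 2182 of the 20027 genes tested. With the block 2 of the 10, Utf1 and Fgf4, were called, both higher, where 7.12% of all genes were called (3.9% lower and 3.22% higher in MB-3). Groups did not overlap for Klf4 (-0.15) and Esrrb (-0.07), with MB-3 lower, and for Fgf4 (0.17), with MB-3 higher. The same was so, over all genes, for 7.37% with MB-3 lower and 8.22% with MB-3 higher. The list had a summed level of 5130, 5390 and 4810 CPM in DMSO and 4900, 5220 and 4990 CPM in MB-3. Of 12 fibroblast and mesenchyme markers, 9 were tested and all 9 had values below 0, at a median of -0.36 on the log2 scale, and 0 called by edgeR (4 at an unadjusted p-value under 0.05, 1 called by DESeq2, Col1a2, and 0 by limma-voom). Their summed level was low, at 27.4, 24.3 and 27.9 CPM in DMSO and 22.8, 21.2 and 19.7 CPM in MB-3, with Zeb1 the most abundant. Lum, Postn and Prrx1 had between 0 and 6 counts in any library. Col1a1 and Col1a2, chosen after their values were seen, were the 2 of these 9 fibroblast and mesenchyme genes called with the block. Both fell, by 1.33 and 1.28 on the log2 scale (adjusted p = 0.0023 and 0.00012 with the block, 0.15 and 0.11 without it, edgeR). Their DMSO levels were 1.05 and 1.87 CPM.

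Of 10 neural progenitor markers only 4 were tested, 3 of them with values above 0 and 1 below, the other 6 being too low, and the summed level of the list was 30, 36.6 and 27.6 CPM in DMSO and 40.8, 41.5 and 33.2 CPM in MB-3. Pax6, a neural transcription factor and the most abundant, rose by 0.39 with the block (adjusted p = 2.8e-05, edgeR; 0.26 without it), and Msx1 had the value below 0 (-0.57, edgeR adjusted p = 0.64). Of 10 primitive endoderm markers, 8 were tested and all 8 had values below 0, with sums of 69.3, 54.8 and 70.1 CPM in DMSO and 57.7, 53.9 and 59.1 CPM in MB-3 and Lama1 the most abundant. Of 10 trophectoderm-like epithelium markers, 9 were tested, 8 of them with values below 0, and their sum was 237, 158 and 361 CPM in DMSO and 151, 126 and 205 CPM in MB-3, with Tfap2c the most abundant. The primitive endoderm and epithelium sums both had the order of letters of Nes, C highest and B lowest in both groups. The keratin genes Krt8, Krt18 and Krt19, part of the epithelium sum, had it too. Lama1 and Tfap2c, the most abundant genes of these lists, did not. Lama1 was at 40.8, 34.3 and 37.2 CPM in DMSO and at 36.5, 36.1 and 34.8 CPM in MB-3. Over all genes tested, C was the highest library of both groups for 14.7%. None of the 3 lists had a gene called by edgeR with treatment as the only term, by DESeq2 or by limma-voom. At an unadjusted p-value under 0.05 (edgeR) the 3 lists had 1, 1 and 6 genes, against 2182 of the 20027 genes tested. With the block Pax6 of the neural list rose, the 1 gene called of 4 tested, and Col4a1, 1 of 8 of the endoderm list, fell. Of the 9 epithelial genes tested 1, Tfap2c, rose and 4, Eomes, Krt8, Krt18 and Krt19, fell (edgeR). Over all genes 7.12% were called with the block, 3.9% lower and 3.22% higher in MB-3. Marker genes other than the most abundant of each list were named after their values were seen. The marker lists were themselves chosen with earlier results of these data known, so their counts of called genes are a description. The part of these marker lists in the differences of Vim, Nes and Lmna was not tested.

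H3K9ac, the acetylation mark measured by ChIP-seq, could be set beside Lmnb2 only. Peaks were deposited on mm9 as positions without heights, from merged duplicates. The part of the study's peak annotation used here covers 1999 of 11724 peaks in DMSO and 1999 of 4673 in MB-3. It names Lmnb2 and none of the other 4 genes, and so cannot show whether those have a peak. It assigns 1 peak of each list to Lmnb2, both on chromosome 10, from 80380490 to 80380940 in DMSO (451 bp) and from 80380645 to 80380941 in MB-3 (297 bp). The MB-3 peak covered 65.6% of the DMSO peak and was 154 bp narrower. The median width of a peak was 528 bp in DMSO and 416 bp in MB-3. With 1 list per treatment there is no replicate check, and no test was made.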

How the data were processed

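The counts of 6 libraries are as the authors deposited them, raw and per Ensembl gene, from single-end reads that were trimmed, mapped to mm10 by Bowtie and assigned to exons by GenomicAlignments; versions and use of strand are not given in the sources used here. Symbols, positions and exon lengths came from GENCODE M21 (GRCm38), which held 30540 of 30677 identifiers, and start-site sequences from RefSeq (GRCm38.p6). The other deposited files hold peak positions on mm9, called by the authors with MACS2 against input on duplicates merged after alignment with BWA. They were not converted.

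With edgeR 4.0.16 in R 4.3.3, filterByExpr kept 20027 genes, libraries were normalized by TMM (factors 0.977 to 1.02), and glmQLFTest compared treatments with treatment as the only term, with the replicate letter as a block, and the letters themselves with treatment in the model. Benjamini-Hochberg adjustment over all genes was used, with 0.05 as the threshold. The letters were treated as pairs because the same-letter correlations of deviations from the group means were 0.24, 0.47 and 0.35 over 15959 genes. Nothing says that cultures were independent, so p-values measure the spread between these samples. An exact two-sided permutation test of 3 against 3 cannot go below 0.1. No 2 libraries of a group were duplicates (chi-square per gene at least 8.41). The tests were tried on counts simulated from these libraries; the letter test made more false calls than its threshold where each gene kept its own dispersion.

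The genes and lists were chosen with earlier results of these data known. Named were the 5 genes, genes of the filament and lamina lists called in either fit or else the 2 of smallest p per list, the most abundant marker of each cell type, and the 3 nearest profiles; other list genes were named after their values were seen, as stated beside them. Alternatives were other normalizations, filters and tests (DESeq2 1.42.0, limma-voom 3.58.1), robust estimation, the block and each library left out. Plots used matplotlib 3.10.9.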

Additional observations from a re-analysis of the deposited data

How the results depend on the processing

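The log2 fold changes of Vim, Nes, Lmna and Lmnb1 kept their sign in all 14 alternatives, while that of Lmnb2, near 0, did not, and that of Nes moved by over 1.5 times without DMSO replicate C. Leaving out single libraries gave -0.87 to -0.66 for Vim, -0.94 to -0.37 for Nes, -0.53 to -0.43 for Lmna, 0.07 to 0.12 for Lmnb1 and -0.05 to 0.01 for Lmnb2. The number of genes called in MB-3 against DMSO, 41, also moved. It was 25 with upper quartile factors, 194 without a filter on low counts, 24 with a filter of 1 CPM in 3 libraries, 192 with DESeq2, 18 with limma-voom and 66 with robust edgeR, and from 0 to 520 with single libraries left out. With the replicate letter as a block it was 1425, and 4 in place of 0 filament and lamina genes of the lists were called. With treatment as the only term, 0 to 2 of those list genes were called when single libraries were left out. Between letters, 1570 genes differed, 656 with DESeq2 and 245 to 2314 with single libraries left out. The causes were not tested. The Lmnb2 peaks also overlapped when 50% of the narrower one had to be shared, and no restriction to wide peaks was run. A level of 1 CPM rested on 42.9 to 50.2 reads, which limits what can be compared among the scarcest markers.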
